A study of Mus musculus with 18 samples.

Results

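The data concern 8 genes for mitochondrial proteins known to be induced in hypoxia or to mark mitochondria for removal, in mouse alveolar macrophages. The genes were taken by symbol from the deposited table of 32789 genes: the mitophagy receptors Bnip3, Bnip3l and Fundc1, the respiratory chain genes Ndufa4l2 and Higd1a, and Mgarp, Ak4 and Fam162a. Each symbol matched a single row. All 8 were among the 12900 genes with enough counts to be tested. Ndufa4l2 and Mgarp entered that set only through their high counts in the libraries labelled Vhl/Hif2a knockout. Ak4 was far higher there than in any other group.

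Macrophages were recovered from bronchoalveolar lavage and enriched with CD11c beads, and polyA RNA was sequenced as 18 libraries in 6 groups of 3. The Vhl/Hif1a knockout (CD11c-Cre_Vhl-Hif1-KO) was set against Control Vhl-Hif1a_flox-flox, the Vhl/Hif2a knockout (CD11c-Cre_Vhl-Hif2-KO) against Control Vhl-Hif2a_flox-flox, and the triple knockout (CD11c-Cre_Vhl-Hif1-Hif2-KO) against Control Vhl-Hif1-Hif2a_flox-flox. Hif2a is the alias of Epas1, the gene for HIF-2 alpha. The controls thus carried the floxed alleles of their own cross, and the labels do not say whether they carried Cre, nor do they give age, sex or pooling of animals. CD11c-Cre acts in any cell that expresses CD11c, so deletion was not limited by design to alveolar macrophages. All groups were untreated as far as the labels say. No 2 groups shared a library, and nothing in the labels says whether the 3 libraries of a group came from separate animals, so p-values measure the spread between these libraries.

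As background, the VHL protein marks the alpha subunits of hypoxia-inducible factors for degradation when oxygen is present. Loss of Vhl therefore stabilises HIF-1 alpha and HIF-2 alpha in normal oxygen, and deletion of Hif1a or Epas1 in the same cells leaves the other subunit, or neither, to act. BNIP3, BNIP3L (also called NIX) and FUNDC1 sit in the outer mitochondrial membrane and bind LC3 family proteins, which brings the mitochondrion to an autophagosome. NDUFA4L2 is a paralog of the respiratory chain protein NDUFA4, HIGD1A binds the respiratory chain, AK4 is an adenylate kinase of the mitochondrial matrix, and MGARP takes part in mitochondrial transport and shape. FAM162A is a mitochondrial protein linked to cell death in hypoxia.

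On GRCm38 with GENCODE M21, Bnip3 lies at chr7:138890836-138909519 and Bnip3l at chr14:66985239-67008877, both on the minus strand. Fundc1 lies at chrX:17556564-17572325, Higd1a at chr9:121848563-121858362, Mgarp at chr3:51388412-51396738 and Fam162a at chr16:36043761-36071594, all on the minus strand. Ndufa4l2, at chr10:127514967-127517154, and Ak4, at chr4:101419277-101466995, are on the plus strand. All values below are per gene, not per transcript or exon.

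Total counts were 19230000 to 34015000 per library. Levels are given as CPM, the count scaled to a common library size, after TMM normalisation, and 3 counts in a library, the limit that a count of 0 allows, came to between 0.0897 and 0.153 CPM. These limits cover counting error only. All 12 alveolar macrophage markers were detected in every group, with a summed level of 23060 to 40210 CPM per library. Markers of T and NK cells summed to at most 0.127 CPM, of B cells to 0.931, of erythrocytes to 3.43, and of endothelium and fibroblasts to 15.9, a value from a single Vhl/Hif1a control. One library stood apart: triple control 2 differed from the other triple controls by a chi-square per degree of freedom of 131 and 133, against 9.04 to 45.4 for every other pair of libraries within a group. Its share of counts from the mitochondrial genome was 0.725%, against 1.79% to 3.14% in the other libraries.

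The targeted genes were read first. Vhl, at 1.92, 2.48 and 2.36 CPM in the Vhl/Hif2a knockout, was at 17.5, 20.1 and 18.6 CPM in its control (log2 fold change -3.05 ± 0.16 SE, edgeR adjusted p = 7.62e-10). It fell likewise in the other knockouts, by 2.55 ± 0.16 in the Vhl/Hif1a cross (edgeR adjusted p = 8.77e-08) and by 2.56 ± 0.16 in the triple cross (edgeR adjusted p = 1.18e-07). In each cross the 3 knockout libraries lay below the 3 controls, for which the exact two-sided permutation p is 0.1, the smallest that 3 against 3 allows. Hif1a RNA was lower, at 58.7, 78.6 and 61.6 CPM, in the knockout labelled Vhl/Hif2a, against 242, 179 and 231 CPM in its control (-1.71 ± 0.18, edgeR adjusted p = 4.31e-06). It was called neither in the Vhl/Hif1a cross (-0.24 ± 0.18, edgeR adjusted p = 0.662) nor in the triple cross (0.19 ± 0.18, edgeR adjusted p = 0.565). Epas1 RNA rose in the knockout labelled Vhl/Hif2a (0.97 ± 0.19, edgeR adjusted p = 0.00187) and was not called in the other crosses (0.46 and -0.24, edgeR adjusted p = 0.261 and 0.513). Counts per gene include exons outside a deleted stretch, so they do not check the Hif1a and Epas1 deletions, and the groups are named below by their labels.

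In the libraries labelled Vhl/Hif2a knockout, 7 of the 8 genes rose against their own control, by 1.34-fold for Bnip3l up to 85.2-fold for Mgarp, and Fundc1 was the only member not called. In the Vhl/Hif1a knockout 1 of the 8 rose, Bnip3, by 5.25-fold. In the triple knockout none of the 8 was called. For comparison, 14.7% of all tested genes were called in either direction (7.68% higher) in the Vhl/Hif2a cross, 3.64% (2.22% higher) in the Vhl/Hif1a cross and 0.0388%, that is 5 genes (0.031% higher), in the triple cross. By the unadjusted p under 0.05 the triple cross had 1484 such genes, and DESeq2 called 11. The count of 7 includes Ndufa4l2 and Mgarp, which could be tested only because they were high in the Vhl/Hif2a knockout. Over the 6 members with more than 9 counts in either group the median log2 fold change was 0.10 in the Vhl/Hif1a knockout and 0.11 in the triple knockout, against 0.00 and -0.01 over all tested genes.

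Markers of other cell types moved with the Vhl/Hif2a knockout as well. In that knockout 7.68% of all tested genes rose and 7.01% fell. Of 7 dendritic cell markers 4 fell, and they summed to 8.10 to 10.5 CPM in the knockout against 19.5 to 47.3 CPM in its control. Of 6 eosinophil and mast cell markers, 2 could be tested and both fell, with sums of 21.3 to 22.8 against 59.0 to 72.2 CPM. The 5 monocyte markers summed to 21.3 to 22.4 against 10.1 to 16.1 CPM, with 1 called higher. Sums overlapped for the 8 neutrophil markers (126 to 151 against 122 to 193 CPM, Ly6g at 0 in every library), but of the 6 tested 1 rose and 2 fell. S100a8 was at 8.88 to 11.7 CPM in the knockout against 2.91 to 3.90 CPM in its control, Csf3r at 31.1 to 39.2 against 64.0 to 82.2 CPM, and Cxcr2 at 3.32 to 4.17 against 11.4 to 13.9 CPM. Sums also overlapped for the 7 lung epithelium markers (293 to 349 against 256 to 402 CPM), with none of the 4 tested called. These sums were nearly all Epcam (291 to 343 against 254 to 393 CPM), while Sftpc was at most 0.568 CPM in these libraries. Of the 12 alveolar macrophage markers themselves 4 rose and 2 fell, and they summed to 34730 to 37180 CPM in the knockout against 25790 to 29370 CPM in its control. Chil3 made up most of that sum (23900 to 26630 against 16020 to 20090 CPM). A higher sum was not particular to this cross. It was 33540 to 40210 against 28650 to 30000 CPM in the Vhl/Hif1a cross, and 33790 to 34430 against 23060 to 30790 CPM in the triple cross. In the Vhl/Hif1a cross the same sums were 13.7 to 21.7 against 19.5 to 27.2 CPM for dendritic cells, 25.8 to 31.1 against 64.2 to 70.3 for eosinophils and mast cells, 21.6 to 29.2 against 13.6 to 16.2 for monocytes, 74.0 to 82.4 against 149 to 165 for neutrophils and 26.4 to 46.4 against 66.1 to 74.2 for lung epithelium. Siglece (24.7 to 29.7 against 62.9 to 67.7 CPM) and Epcam (24.7 to 41.3 against 64.1 to 67.3 CPM) again made up most of their sums. Epx, Prg2, Cpa3 and Mcpt4 had 0 counts in both groups of that cross. In these bulk libraries, a change in the share of cells that express a gene and a change of RNA per cell cannot be told apart, and the part of these markers in the results was not tested.

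**Figure D1:**
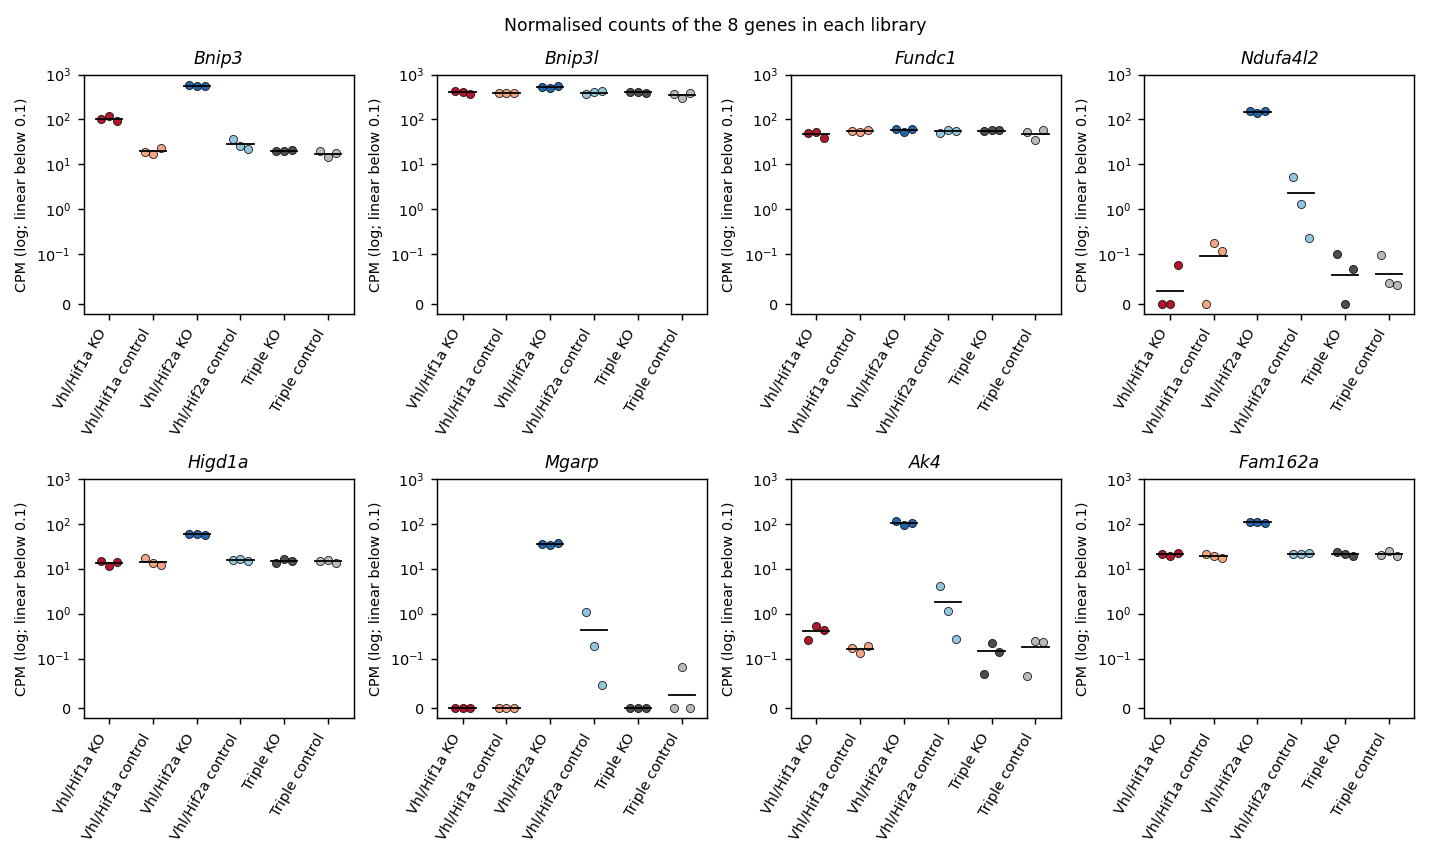
Normalised counts (CPM, log axis, linear below 0.1) of the 8 genes in each of the 18 libraries; points are libraries, bars are group means, and the 3 crosses run from left to right with the knockout left of its control. Bnip3 is high in both double knockouts, Ndufa4l2, Mgarp, Ak4, Higd1a and Fam162a are high in the Vhl/Hif2a knockout, and Bnip3l and Fundc1 lie near one level throughout.

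The stretches of DNA just before 4 of the genes that rose are shown because they hold the core of the hypoxia response element, the short motif that HIF dimers bind. Of the 8 genes, 6 had an entry in the RefSeq promoter table (GRCm38.p6), and Ndufa4l2 and Bnip3l had none. The motifs ACGTG and GCGTG were searched on both strands over the 250 bases before each RefSeq start, with overlapping matches counted. At least 1 match lay in 38.6% of all 32851 such windows. Bnip3 had 5 matches and Fam162a had 6, while 1.01% of all windows had at least 5 and 0.417% at least 6. Higd1a had 2, Ak4 had 2 in the window of each of its 4 RefSeq starts, Mgarp had 1 and Fundc1 had 0. The windows of Higd1a and Fundc1 and the fourth of Ak4 lie wholly inside the gene as GENCODE M21 annotates it, as do 191 of the 250 bases for Mgarp, and that of Fundc1 therefore says nothing of the bases before its annotated 5′ end. Capitals below mark the motif on either strand, and each stretch ends at the annotated 5′ end of the gene, read 5′ to 3′ on the strand of the gene. The first is chr7:138909520-138909756 (minus strand, 237 bases), the second chr16:36071595-36071811 (minus strand, 217 bases, with 5 of the 6 matches), the third chr4:101419039-101419276 (plus strand, 238 bases) and the fourth chr3:51396739-51396797 (minus strand, 59 bases). In Bnip3 a palindrome holds ACGTG on both strands and counts as 2 matches.
Bnip3: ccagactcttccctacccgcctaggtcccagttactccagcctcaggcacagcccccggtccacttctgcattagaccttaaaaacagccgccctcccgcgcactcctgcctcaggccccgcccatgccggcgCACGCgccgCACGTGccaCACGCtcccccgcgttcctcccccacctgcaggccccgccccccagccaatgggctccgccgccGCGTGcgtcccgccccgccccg
Fam162a: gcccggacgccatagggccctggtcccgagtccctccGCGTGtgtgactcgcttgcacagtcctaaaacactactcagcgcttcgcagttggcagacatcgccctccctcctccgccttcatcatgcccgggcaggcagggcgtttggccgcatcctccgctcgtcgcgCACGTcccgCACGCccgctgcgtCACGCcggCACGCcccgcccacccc
Ak4: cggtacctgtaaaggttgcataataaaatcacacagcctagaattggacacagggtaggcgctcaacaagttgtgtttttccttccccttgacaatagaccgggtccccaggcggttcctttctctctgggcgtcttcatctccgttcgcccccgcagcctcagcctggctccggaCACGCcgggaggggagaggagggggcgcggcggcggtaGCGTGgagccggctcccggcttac
Mgarp: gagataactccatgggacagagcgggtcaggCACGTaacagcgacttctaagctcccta

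**Figure D2:**
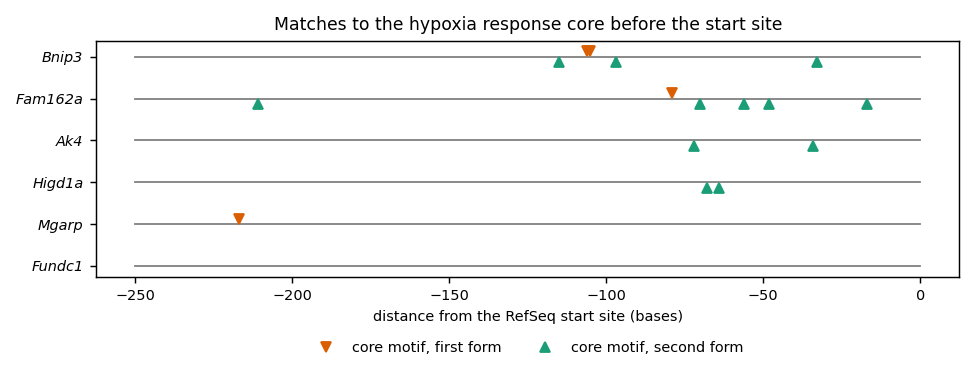
Position of each match to ACGTG (first form, pointing down) and GCGTG (second form, pointing up) within the 250 bases before the RefSeq start of 6 of the genes, in bases from that start. For Ak4 the first of 4 windows is drawn. The 5 matches of Bnip3 and the 6 of Fam162a all lie nearer the start than the single match of Mgarp, and Fundc1 has none.

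Bnip3, the mitophagy receptor best known as a HIF target, rose in both double knockouts. The 3 libraries of the Vhl/Hif2a knockout held 580.3, 552.5 and 556 CPM, against 37.7, 26.2 and 21.7 CPM in the control. Every knockout library lay far above the highest control, and the 3 knockout libraries lay close together. The log2 fold change was 4.31 ± 0.19 SE (19.8-fold, edgeR adjusted p = 9.85e-11). The Vhl/Hif1a knockout held 102, 119 and 91.5 CPM of Bnip3, against 18.6, 17.1 and 23.7 CPM in the control, again without overlap (2.39 ± 0.17, edgeR adjusted p = 2.32e-07). In the triple knockout it was at 19.8, 19.9 and 20.7 CPM, against 19.4, 14.3 and 18.2 CPM in the control. These groups did not overlap either, but the difference was small and did not pass the test (0.21, edgeR adjusted p = 0.518).

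The size of the Bnip3 response differed between the crosses. The effect in the Vhl/Hif2a knockout exceeded that in the Vhl/Hif1a knockout by 1.92 ± 0.24 on the log2 scale (edgeR adjusted p = 0.000109), and that in the triple knockout by 4.09 ± 0.24 (edgeR adjusted p = 1.17e-08). The effect in the Vhl/Hif1a knockout exceeded that in the triple knockout by 2.18 ± 0.24 (edgeR adjusted p = 4.14e-05). Any pair of these 3 differences has a knockout and its control in common. Ordered by mean level over the 6 groups, Bnip3 was at 563 CPM in the Vhl/Hif2a knockout, 104 in the Vhl/Hif1a knockout, 28.5 in the Vhl/Hif2a control, 20.1 in the triple knockout, 19.8 in the Vhl/Hif1a control and 17.3 in the triple control. Each of the first 3 groups lay above the next with no overlap of libraries, while the triple knockout overlapped with the Vhl/Hif1a control, and the Vhl/Hif1a control with the triple control.

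Part of the Bnip3 sequence occurs elsewhere in the genome, and the deposited counts for Bnip3 were not whole numbers in any of the 18 libraries, as when reads are divided among several places. The lincRNA AC160336.1, with a row of its own, matched the Bnip3 transcripts at 98.3% identity over 858 bases. It had 628 to 794 counts per library in the Vhl/Hif2a knockout against 67.3 to 123 in its control. That is 3.53% to 4.49% of the Bnip3 count in the knockout libraries and 12.7% to 18.1% in the control libraries. The share was 6.96% to 7.55% in the Vhl/Hif1a knockout against 13.6% to 17.6% in its control, and 20.6% to 23.6% in the triple knockout against 19.5% to 26.2% in its control. A further 4 pseudogenes matched Bnip3 at 93.4% to 98.9% identity and had no row in the deposited table. Reads may be placed wrongly between Bnip3 and its copies, so the Bnip3 levels are uncertain by an amount that these shares show only in part. Pseudogenes with no row in the deposited table also matched Ak4 (99.6% over 672 bases), Bnip3l (99.4% over 1131 bases) and Higd1a (99.3% over 288 bases). Counts were not whole in 7 libraries for Higd1a and 10 for Fam162a, and were whole for Ak4 and Bnip3l.

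Bnip3l, the receptor that clears mitochondria from maturing red cells, was already abundant in every group and rose by far less. It held 539, 495 and 556 CPM in the Vhl/Hif2a knockout, against 361, 411 and 420 CPM in the control (0.42 ± 0.09, 1.34-fold, edgeR adjusted p = 0.00543). The lowest knockout library lay above the highest control. Elsewhere it averaged 404 ± 27.1 CPM in the Vhl/Hif1a knockout and 385 ± 4.74 CPM in its control (SD, n = 3 each, log2 fold change 0.07, edgeR adjusted p = 0.853). In the triple knockout it averaged 399.8 ± 6.18 CPM and in the control 351 ± 48.99 CPM (SD, n = 3 each, 0.19, edgeR adjusted p = 0.429). Neither difference between the effects that involves the Vhl/Hif2a knockout passed the test for Bnip3l (0.35 over the Vhl/Hif1a effect, edgeR adjusted p = 0.278; 0.23 over the triple effect, edgeR adjusted p = 0.292). Both were called when triple control 2 was left out (edgeR adjusted p = 0.0497 and 0.0441).

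Fundc1, the third receptor and in other systems controlled mainly by phosphorylation in hypoxia, was not called in any knockout. It was at 61.8, 53.0 and 60.2 CPM in the Vhl/Hif2a knockout, against 49.5, 57.0 and 56.7 CPM in the control, with overlapping libraries (0.10 ± 0.14, edgeR adjusted p = 0.729). Libraries of the Vhl/Hif1a knockout held 50.3, 51.8 and 39.4 CPM, against 54.7, 53.1 and 57.3 CPM in the control. Those 3 knockout libraries were the lower ones, yet the difference did not pass the test (-0.22 ± 0.14, edgeR adjusted p = 0.598). It averaged 56.7 ± 1.42 CPM in the triple knockout and 48.6 ± 11.9 CPM in the control (SD, n = 3 each), where control 2 was lowest at 35.2 CPM.

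To set the receptors beside one another, levels were divided by the length of all annotated exons, 2.265 kb for Bnip3 and 3.859 kb for Bnip3l. Which transcripts were expressed is not known, and the Bnip3 counts are uncertain as given above, so the order is a rough one. In CPM the 2 genes overlapped in the Vhl/Hif2a knockout (552.5 to 580.3 for Bnip3, 495.3 to 556.4 for Bnip3l). In the Vhl/Hif2a knockout Bnip3 stood first of the 8 genes at 249 ± 6.64 CPM per kb (SD, n = 3) and Bnip3l second at 137 ± 8.15 CPM per kb. In each of the other 5 groups Bnip3l was first, at 90.9 to 105 CPM per kb by group mean. Bnip3 was at 45.9 CPM per kb in the Vhl/Hif1a knockout, and at 7.65 to 12.6 CPM per kb in the triple knockout and the 3 controls. Fundc1 was between 20.1 and 24.8 CPM per kb in all 6 groups.

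**Figure D3:**
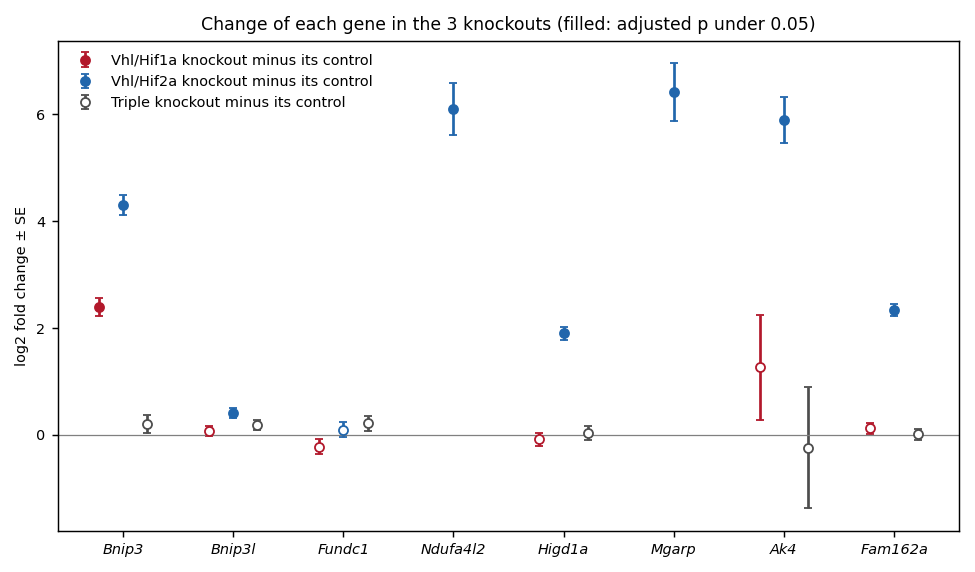
Log2 fold change with its SE, derived from the F statistic of the test, for each gene in the 3 knockouts against their own controls. Filled points passed the test, and genes with no more than 9 counts in both groups are left out. The Vhl/Hif2a knockout stands above the other knockouts for the 5 members other than Fundc1 that are drawn in all 3 crosses, by the least for Bnip3l, and Fundc1 lies between -0.22 and 0.22.

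Ndufa4l2, Mgarp and Ak4 were close to silent outside the Vhl/Hif2a cross and were well detected in its knockout. Ndufa4l2 and Mgarp passed the filter on counts only through that knockout, so their p-values there come after that selection. Ndufa4l2, whose product is linked to lower respiratory chain activity in hypoxia, was at 153, 138 and 158 CPM in that knockout, against 5.26, 1.31 and 0.232 CPM in the control. The log2 fold change was 6.09 ± 0.49 SE (68.3-fold, edgeR adjusted p = 1.6e-07). Its counts summed to 2 in the Vhl/Hif1a knockout and 7 in that control, and to 5 in both triple groups, so no fold is given there.

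Mgarp was at 34.7, 34.5 and 37.0 CPM in the Vhl/Hif2a knockout, against 1.07, 0.193 and 0.0465 CPM in the control (6.41 ± 0.54, edgeR adjusted p = 1.34e-05). It had 0 counts in all 6 libraries of the Vhl/Hif1a cross and 0 in the triple knockout, and 2 counts in all in the triple control. A count of 0 allows up to the limit of 0.0897 to 0.153 CPM given above, so absence cannot be told from a level under it.

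Ak4 was at 113, 92.6 and 106 CPM in the Vhl/Hif2a knockout, against 4.04, 1.12 and 0.279 CPM in the control (5.89 ± 0.44, 59.2-fold, edgeR adjusted p = 5.99e-08). The Vhl/Hif1a knockout had 7, 14 and 11 counts, against 4, 3 and 5 in the control. The 3 knockout libraries lay above the controls, at 0.263 to 0.521 against 0.132 to 0.193 CPM, but at these counts the difference did not pass the test (1.26 ± 0.98, edgeR adjusted p = 0.69). In the triple knockout it had 13 counts in all, against 14 in the control. The Ak4 effect in the Vhl/Hif2a knockout exceeded that in the triple knockout by 6.12 ± 1.44 (edgeR adjusted p = 0.0135), a call that ended without triple control 2 (edgeR adjusted p = 0.0808) or triple control 3 (edgeR adjusted p = 0.0557). Against the Vhl/Hif1a effect the difference of 4.62 ± 1.39 was not called (edgeR adjusted p = 0.112), but it was without Vhl/Hif2a control 1 (edgeR adjusted p = 0.00114), without Vhl/Hif2a control 3 (edgeR adjusted p = 0.0372) and by DESeq2 (adjusted p = 0.0017).

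The 3 controls of the Vhl/Hif2a cross were unequal for these genes. Ndufa4l2 in controls 1, 2 and 3 stood at 3.52%, 0.878% and 0.156% of the knockout mean, Mgarp at 3.03%, 0.545% and 0.131%, and Ak4 at 3.90%, 1.08% and 0.269%. Egln3, a prolyl hydroxylase gene induced by HIF, stood at 3.64%, 0.781% and 0.147% in the same controls. Bnip3 followed the same order at 6.69%, 4.65% and 3.85%. Control 1 was thus the highest and control 3 the lowest for all 5 of these genes. The other members that rose did not follow that order. Higd1a stood at 26.8%, 28.0% and 25.4%, Fam162a at 19.3%, 19.8% and 20.3%, and Bnip3l at 68.1%, 77.45% and 79.1%. What sets these libraries apart was not tested. Without control 1 the log2 fold changes were 7.52 for Ndufa4l2, 8.08 for Mgarp and 7.14 for Ak4, and every one stayed called. With any single library left out they ran from 5.57 to 7.52, from 5.905 to 8.08 and from 5.39 to 7.14. These ranges reach further above the values from all libraries than the SE does, so the SE understates how far these folds depend on single controls. In the Vhl/Hif1a cross control 3 had the highest Egln3, at 32.5 CPM against 0.464 and 0.617 CPM in controls 1 and 2, and the highest Bnip3 of its group. Without it the log2 fold change of Bnip3 was 2.55.

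**Figure D4:**
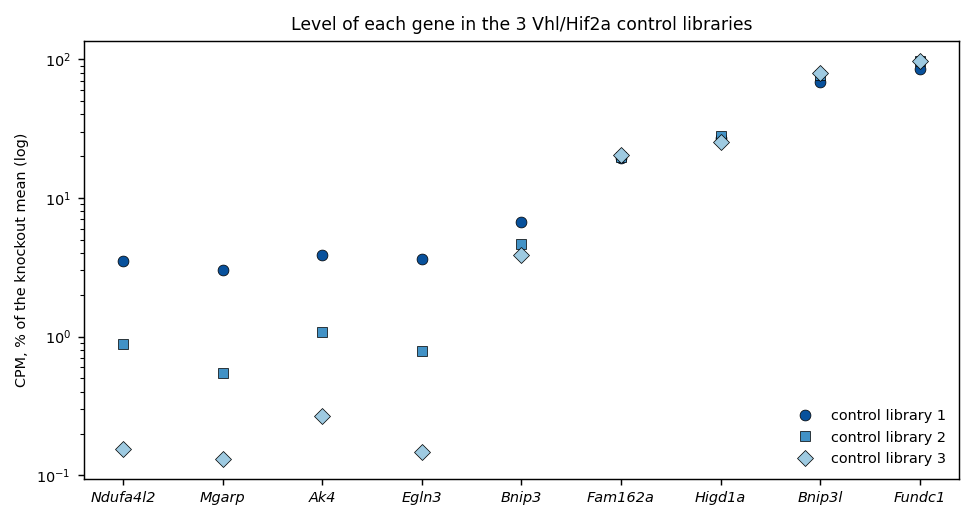
Level of each gene in the 3 control libraries of the Vhl/Hif2a cross as a percentage of the mean of the 3 knockout libraries (log axis), with Egln3 for comparison. For Ndufa4l2, Mgarp, Ak4 and Egln3 control 1 lies between 3.03% and 3.90% and control 3 at or under 0.269%, while Fundc1 and Bnip3l lie near the knockout level in all 3 controls.

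Higd1a and Fam162a were detected at a moderate level in all groups and rose in the Vhl/Hif2a knockout alone among the 3 knockouts, with both differences of effect passing the test. Higd1a, a small inner membrane protein that helps assemble and regulate cytochrome oxidase, was at 57.7, 60.1 and 55.5 CPM in that knockout, against 15.5, 16.2 and 14.7 CPM in the control (1.90 ± 0.12, 3.73-fold, edgeR adjusted p = 1.43e-08). It averaged 13.5 ± 1.66 CPM in the Vhl/Hif1a knockout and 14.3 ± 2.64 CPM in its control (SD, n = 3 each). In the triple knockout it averaged 14.9 ± 1.40 CPM and in the control 14.5 ± 1.28 CPM (SD, n = 3 each). The effect in the Vhl/Hif2a knockout exceeded that in the Vhl/Hif1a knockout by 1.98 ± 0.18 (edgeR adjusted p = 3.15e-06) and that in the triple knockout by 1.86 ± 0.17 (edgeR adjusted p = 2.88e-06).

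Fam162a was at 109, 110.4 and 106 CPM in the Vhl/Hif2a knockout, against 20.9, 21.5 and 22.1 CPM in the control (2.34 ± 0.11, 5.05-fold, edgeR adjusted p = 1.53e-10). Within each of these groups the libraries differed little. It averaged 20.9 ± 1.52 CPM in the Vhl/Hif1a knockout and 19.1 ± 1.83 CPM in its control (SD, n = 3 each, log2 fold change 0.13, edgeR adjusted p = 0.716). It averaged 21.5 ± 1.99 CPM in the triple knockout and 21.3 ± 3.08 CPM in its control (SD, n = 3 each). The effect in the Vhl/Hif2a knockout exceeded the Vhl/Hif1a effect by 2.21 ± 0.15 (edgeR adjusted p = 1.2e-07) and the triple effect by 2.32 ± 0.15 (edgeR adjusted p = 1.85e-08). Fam162a shares 168 exon bases with Wdr5b on the opposite strand. Wdr5b had at most 140.1 counts in a library, against 410 to 3563 for Fam162a, and no source used here gives the strand setting of the counting.

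Counted over the members, 3 of the 8 changed more in the Vhl/Hif2a than in the Vhl/Hif1a knockout (Bnip3, Higd1a and Fam162a; 2.44% of all tested genes were called for that difference, 1.63% higher). Against the triple effect the count was 4 of 8, with Ak4 added (7.99% of all tested genes, 4.91% higher), and between the Vhl/Hif1a and triple effects it was 1 of 8, Bnip3 (2.04%, 1.5% higher). No such difference is given for Mgarp, or for Ndufa4l2, since the second cross held no more than 9 counts in either group. The starting levels were compared too. Between the Vhl/Hif1a and Vhl/Hif2a controls none of the 8 was called by edgeR (0.341% of all tested genes called; 44 genes, and 702 at an unadjusted p under 0.05), while DESeq2 called Ndufa4l2 and Ak4. Between the Vhl/Hif1a and triple controls none was called (5.4%; 697 genes, and 3149 at an unadjusted p under 0.05). Between the Vhl/Hif2a and triple controls Bnip3, Ndufa4l2 and Ak4 were higher in the Vhl/Hif2a control (3 of 8; 3.42% of all tested genes, 1.88% higher). Without Vhl/Hif2a control 1, or without triple control 2, Ndufa4l2 was the only one of these left, and with only the groups compared, or with a replicate block, none was called.

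The genes whose pattern over the 18 libraries lay nearest to Bnip3 were Slc2a1, the glucose transporter GLUT1, then Lrp2bp, Nrn1, Apln, which encodes a vasoactive peptide, and Htra3, a serine protease. Nearness is the root mean square difference of log2 CPM after each gene was centred on its own mean, and it was 0.43 for Slc2a1 and 0.62 for Htra3. Slc2a1 averaged 373 CPM in the Vhl/Hif2a knockout against 25.6 in its control, 66.2 in the Vhl/Hif1a knockout against 20.1, and 16.6 in the triple knockout against 23.5. It thus shared with Bnip3 the high level in both double knockouts and the larger one in the Vhl/Hif2a cross. Lrp2bp and Apln averaged only 2.22 and 3.145 CPM in the Vhl/Hif2a knockout. Outside the double knockouts their group means were at most 0.0984 and 0.21 CPM. At such counts the log2 CPM, and so the nearness, depends on the prior count of 2. The nearest genes to Ndufa4l2 were Mgarp (0.88), Vegfa (1.02) and Ak4 (1.11), followed by Stc2, Rgs11, Colgalt2 and Adm2 at 1.45 to 1.72. Vegfa, the vascular growth factor, averaged 77.6 CPM in the Vhl/Hif2a knockout against 1.03 in its control, and 0.242 CPM or less in each of the 4 groups of the other crosses. The genes were chosen for this likeness, so their levels are a description.

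Among 14 tested of 19 listed paralogs of the members and other mitochondrial genes of the hypoxia response, 4 rose and 3 fell in the Vhl/Hif2a knockout (median log2 fold change 0.18, against 0.00 over all tested genes, of which 7.68% rose and 7.01% fell). Ndufa4, the respiratory chain paralog of Ndufa4l2, fell to 27.6, 30.1 and 26.6 CPM in the knockout, against 66.3, 79.1 and 79.2 CPM in the control (-1.41 ± 0.13, edgeR adjusted p = 8.26e-07). The 2 genes thus moved in opposite directions. Ndufa4 was at 68.8 ± 5.06 CPM in the Vhl/Hif1a knockout and 67.8 ± 15.2 CPM in its control (SD, n = 3 each). Its effect in the Vhl/Hif2a knockout differed from the Vhl/Hif1a effect by -1.44 ± 0.18 (edgeR adjusted p = 0.000136) and from the triple effect by -1.36 ± 0.18 (edgeR adjusted p = 0.000108).

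Ak3 and Ak4 showed a like contrast, with a smaller change in Ak3. Ak3, a matrix kinase related to Ak4, was at 49.3 ± 2.19 CPM in the Vhl/Hif2a knockout and 69.2 ± 4.74 CPM in its control (SD, n = 3 each, -0.49 ± 0.08, edgeR adjusted p = 0.000405). It fell in the Vhl/Hif1a knockout too, by 0.35 on the log2 scale (edgeR adjusted p = 0.0169), a call that single left-out libraries ended (without control 3, edgeR adjusted p = 0.108).

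Pdk1, the kinase that inhibits pyruvate dehydrogenase, rose to 269.7, 277 and 279 CPM in the Vhl/Hif2a knockout, against 68.7, 52.5 and 55.4 CPM in the control (2.23 ± 0.11, edgeR adjusted p = 3.25e-10). Its effect there exceeded the Vhl/Hif1a effect by 1.86 ± 0.15 (edgeR adjusted p = 8.98e-07). Lonp1, the matrix protease that in human cells takes part in the exchange of cytochrome oxidase subunits in hypoxia, was at 94.9 ± 4.41 CPM in the Vhl/Hif2a knockout and 62.3 ± 1.53 CPM in its control (SD, n = 3 each, 0.61 ± 0.08, edgeR adjusted p = 5.95e-05). Pdk3 rose by 0.34 (edgeR adjusted p = 0.0324), a call that ended with any single library of that cross left out (edgeR adjusted p up to 0.127). Mxi1, a Myc antagonist, rose in both double knockouts, by 0.71 ± 0.08 in the Vhl/Hif2a knockout (edgeR adjusted p = 1.13e-05) and by 0.60 ± 0.08 in the Vhl/Hif1a cross (edgeR adjusted p = 0.000216). Mxi1 was the 1 gene of the 14 that rose in the Vhl/Hif1a knockout and Ak3 the 1 that fell. Of all tested genes, 2.22% rose and 1.42% fell there. In the triple knockout none of the 14 was called, against 0.0388% of all tested genes.

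**Figure D5:**
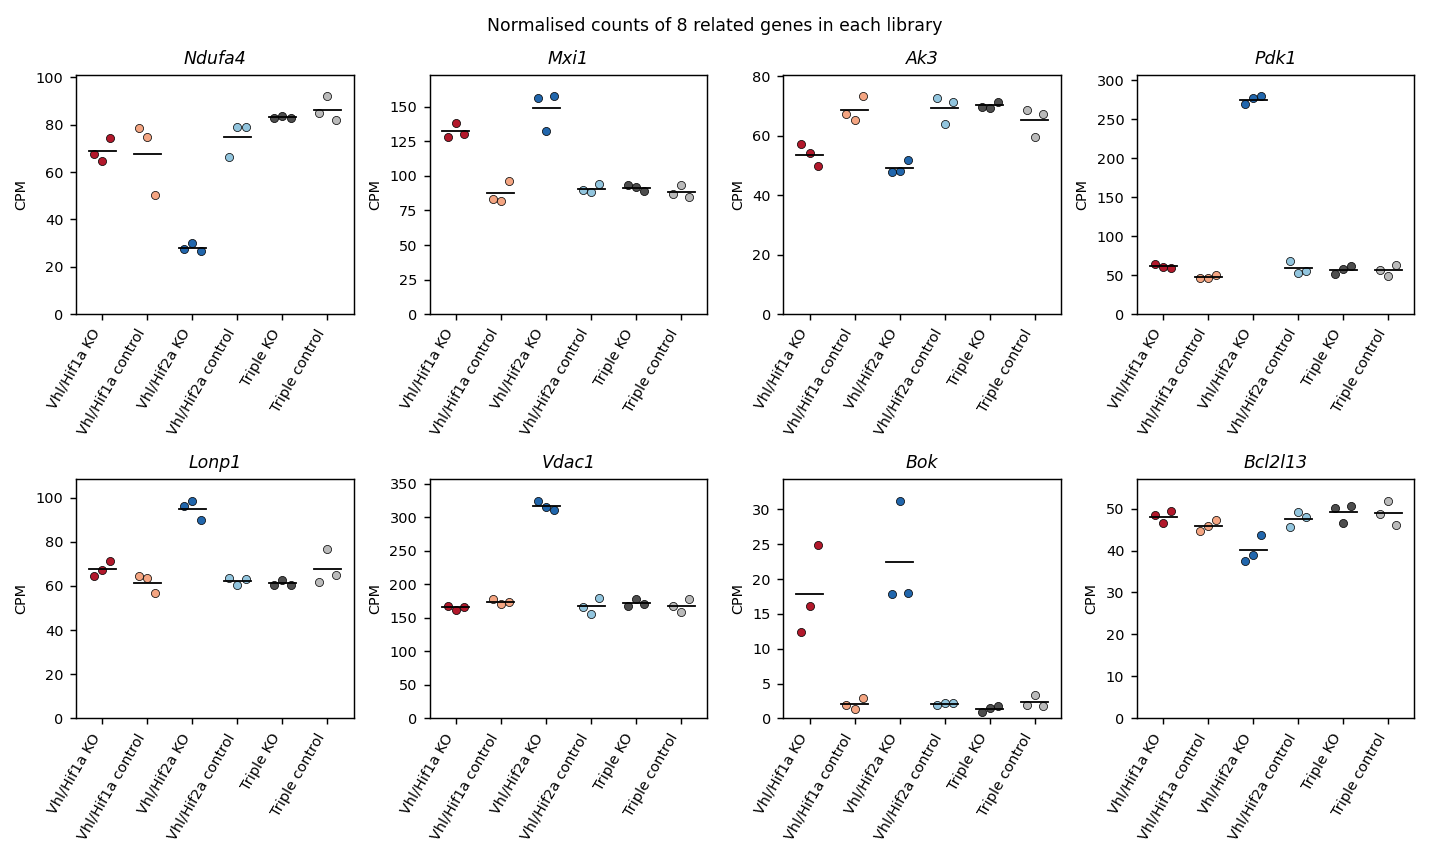
Normalised counts (CPM, linear axes from 0) of 8 related genes in each library, with group means as bars and each knockout left of its control. Ndufa4 and Ak3 lie lower, and Pdk1, Lonp1, Mxi1 and Vdac1 higher, in the 3 Vhl/Hif2a knockout libraries than in their controls, while Bok is high in both double knockouts.

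Other genes of the mitophagy pathway were read from a list. Of 26 tested genes of the machinery, of 29 listed, which include the LC3 family and its adaptors, 1 rose and 1 fell in the Vhl/Hif2a knockout (median log2 fold change 0.01, and 0.04 in the Vhl/Hif1a and -0.07 in the triple knockout). Of all tested genes, 7.68% rose and 7.01% fell in the Vhl/Hif2a knockout, and 2.22% rose and 1.42% fell in the Vhl/Hif1a knockout. Nipsnap2, a matrix protein that recruits autophagy adaptors, rose by 0.30 ± 0.07 (edgeR adjusted p = 0.00939). Bcl2l13, another outer membrane receptor, was at 40.1 ± 3.21 CPM in the knockout and 47.6 ± 1.82 CPM in the control (SD, n = 3 each, -0.25 ± 0.07, edgeR adjusted p = 0.0335). The Bcl2l13 call ended without single libraries of any of 4 groups (edgeR adjusted p up to 0.165). Src, a kinase that phosphorylates FUNDC1, was the 1 called in the Vhl/Hif1a knockout, at 2.46 ± 0.488 CPM against 4.87 ± 1.36 CPM in the control (SD, n = 3 each, -0.99 ± 0.25, edgeR adjusted p = 0.0318), and the call ended without single libraries (edgeR adjusted p up to 0.196). None of the 26 was called in the triple knockout, where 0.0388% of all tested genes were called. None differed in effect between crosses. Of all tested genes, 2.44% were called for Vhl/Hif2a minus Vhl/Hif1a, 7.99% for Vhl/Hif2a minus triple and 2.04% for Vhl/Hif1a minus triple.

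Genes of mitochondrial mass and dynamics were read against the same share of all tested genes called. It was 14.7% in the Vhl/Hif2a, 3.64% in the Vhl/Hif1a and 0.0388% in the triple cross. Of 24 genes of biogenesis, import and mass, Vdac1 alone was called, and in the Vhl/Hif2a knockout alone (list median log2 fold change 0.03). Vdac1, the main outer membrane channel, was at 325, 315 and 311 CPM there, against 166, 156 and 180.1 CPM in the control (0.92 ± 0.07, edgeR adjusted p = 5.99e-08), and its effect exceeded the Vhl/Hif1a effect by 0.99 ± 0.10 (edgeR adjusted p = 6.52e-06). Of 20 genes of fusion, fission and transport (median -0.05 in the Vhl/Hif2a knockout), Trak2, an adaptor for mitochondrial movement, fell by 0.31 in the Vhl/Hif2a knockout (edgeR adjusted p = 0.0237), and left-out single libraries ended that call (edgeR adjusted p up to 0.126). None of the 13 protein genes of the mitochondrial genome was called in any knockout. Their median log2 fold change was -0.12 in the Vhl/Hif2a, 0.10 in the Vhl/Hif1a and 0.41 in the triple knockout, where triple control 2 had the low mitochondrial share given above.

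BNIP3 and BNIP3L are distant members of the Bcl2 family, so 13 tested Bcl2 family genes were read as well. In each double knockout 2 rose and 1 fell, with a median log2 fold change of 0.01 in the Vhl/Hif2a and 0.07 in the Vhl/Hif1a knockout. Of all tested genes, 14.7% were called in the Vhl/Hif2a cross and 3.64% in the Vhl/Hif1a cross. Bok, a pore-forming family member, was at 17.9, 31.3 and 18.05 CPM in the Vhl/Hif2a knockout, against 1.94, 2.28 and 2.18 CPM in its control (3.38 ± 0.34, edgeR adjusted p = 2.2e-06). Libraries of the Vhl/Hif1a knockout held 12.5, 16.2 and 24.9 CPM, against 1.90, 1.41 and 2.97 CPM in its control (3.08 ± 0.34, edgeR adjusted p = 1.59e-05). Like Bnip3 it was high in both double knockouts, and both effects exceeded the triple effect (by 4.17 ± 0.49, edgeR adjusted p = 3.49e-05, and by 3.86 ± 0.49, edgeR adjusted p = 0.000207). The difference between the Vhl/Hif2a and Vhl/Hif1a effects was not called for Bok (0.31). Mcl1, a survival member, rose by 0.30 in the Vhl/Hif2a knockout (edgeR adjusted p = 0.0259), and by 0.36 in the knockout labelled Vhl/Hif1a (edgeR adjusted p = 0.0222). Bcl2l11, the gene for the death activator BIM, fell by 0.28 in the knockout labelled Vhl/Hif2a (edgeR adjusted p = 0.0336), and by 0.33 in the one labelled Vhl/Hif1a (edgeR adjusted p = 0.033). The Mcl1 and Bcl2l11 calls ended without single libraries in both crosses (edgeR adjusted p up to 0.188). None of the 13 was called in the triple knockout, against 0.0388% of all tested genes.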

How the data were processed

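The authors deposited a single table of 32789 genes by 18 libraries whose values are estimated counts per gene, made from reads aligned to GRCm38 with FastQC, cutadapt and STAR among the tools, per the submitters' processing notes. The unit was read from the values: 89.2% were whole numbers, and column totals differed. No source used here names tool versions, the counting tool or its strand setting. Per the labels' protocols the library kit was directional.

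Counts were rounded and fitted with edgeR 4.0.16 (R 4.3.3): TMM normalisation, filterByExpr on the 6 groups (12900 genes kept, holding 99.97% of counts), and quasi-likelihood tests on all 18 libraries with 6 group means. P-values were adjusted by Benjamini-Hochberg over all tested genes, with a threshold of 0.05. Contrasts were each knockout minus its control, the differences between these effects, and the differences between controls. Log2 CPM used a prior count of 2. Depth was 19230000 to 34015000 counts per library, and 3 counts were taken as the limit that a count of 0 allows. The procedure was tested on simulated data. Alternatives were RLE normalisation, no filter on low counts, DESeq2 1.42.0, the compared groups alone, a replicate block, and each library left out. One more, without the control libraries with the highest Egln3 of the double crosses, was chosen after seeing the data. Sequences alike to the members were found with BLAST 2.17.0 in GENCODE M21 transcripts (at least 90% identity over 100 bases), and promoter windows are those of RefSeq (GRCm38.p6).

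The 8 members and the gene lists were chosen with earlier results of these data known. Named besides the members are Vhl, Hif1a and Epas1, the 5 genes nearest in pattern to Bnip3 and to Ndufa4l2, and from each list at most the 4 called genes with the lowest p in each direction and comparison. Egln3, Wdr5b, AC160336.1 and the cell type markers given by name were added after their values were seen. Some listed genes are counted but not reported here by name.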

Additional observations from a re-analysis of the deposited data

Results flagged for a closer look

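The effect of a knockout differed between crosses, by the test of the difference itself on the log2 scale, for 4 members and 8 related genes. The Vhl/Hif2a effect exceeded the Vhl/Hif1a effect by 1.92 for Bnip3, 1.98 for Higd1a and 2.21 for Fam162a, and by 0.99 for Vdac1, 1.86 for Pdk1 and 0.47 for Lonp1, while for Ndufa4 the difference was -1.44. It exceeded the triple effect by 4.09 for Bnip3, 1.86 for Higd1a, 6.12 for Ak4 and 2.32 for Fam162a. The same difference was 4.17 for Bok, 0.89 for Vdac1, 0.84 for Tomm40, an import channel gene, 2.21 for Pdk1, 0.76 for Lonp1 and 0.66 for Mxi1, and it was -1.36 for Ndufa4 and -0.60 for Ak3. The Vhl/Hif1a effect exceeded the triple effect by 2.18 for Bnip3, 3.86 for Bok and 0.55 for Mxi1, and the difference was -0.46 for Ak3. By edgeR, the Lonp1 difference between the double crosses, the Ak3 difference between the Vhl/Hif1a and triple effects and the Tomm40 difference did not hold under most left-out libraries, with adjusted p up to 0.122, 0.143 and 0.109. The Mxi1 difference between the Vhl/Hif1a and triple effects ended in 5 of the fits with a library left out (adjusted p up to 0.0737) and with a replicate block (0.0675). The Ak4 difference ended without triple control 2 or 3. Tomm40 was called in no single knockout.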

How the results depend on the processing

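The members called in the 3 knockouts stayed at 1 (Vhl/Hif1a), 7 (Vhl/Hif2a) and 0 (triple) under every alternative and with each library left out. Of counts that moved, DESeq2 called 11 genes in the triple cross, 492 for the Vhl/Hif2a minus Vhl/Hif1a effect (5 members, with Ndufa4l2 and Ak4 added), 479 for Vhl/Hif1a minus triple, and 88 (2 members), 1293 and 983 between controls (Vhl/Hif1a minus Vhl/Hif2a, Vhl/Hif1a minus triple, Vhl/Hif2a minus triple). With only the groups compared the counts were 2 in the triple cross, 680 for Vhl/Hif2a minus triple effect, and 66 and 17 (0 members) for the last 2 control contrasts. With no filter on low counts 2 members differed between the Vhl/Hif1a and Vhl/Hif2a controls. Without the control libraries of highest Egln3, an alternative chosen after seeing the data, the control contrasts gave 25, 243 and, in members for the last, 1.

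Same-numbered libraries did not deviate together (r of -0.218 to 0.2), so the numbers were not taken as pairs. With a replicate block the counts were 194 for the Vhl/Hif2a minus Vhl/Hif1a effect and 150 for Vhl/Hif1a minus triple, and 11, 26 and 16 (0 members) for the control contrasts.

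With single libraries left out, all-gene counts ranged from 275 (without Vhl/Hif1a control 2) to 861 (without triple control 2) in the Vhl/Hif1a cross, against 469, and from 1249 (without Vhl/Hif2a knockout 1) to 2907 (without triple control 2) in the Vhl/Hif2a cross, against 1895. They ranged from 3 to 5 in the triple cross. For the differences of effect they ranged from 213 to 503 (members 3 to 5), 675 to 1390 (members 3 to 6) and 161 to 401, and for the control contrasts from 18 to 56 (members 0 to 2), 211 to 1187 and 141 to 858 (members 1 to 3). Signs turned for values that were not called: Higd1a ranged from -0.180 to 0.082 in the Vhl/Hif1a cross, from -0.035 to 0.102 in the triple cross and from -0.214 to 0.048 for their difference. In the triple cross Ak4 ranged from -0.707 to 0.096, Fam162a from -0.068 to 0.134 and Hif1a RNA from -0.035 (without control 2) to 0.347. Fundc1 ranged from -0.266 to 0.064 for Vhl/Hif2a minus triple, and Fam162a from -0.007 to 0.194 for Vhl/Hif1a minus triple. The cause was not tested. At 9 counts or fewer per group, Ndufa4l2 and Mgarp are below what this depth can compare outside the Vhl/Hif2a cross.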
